A study of Homo sapiens with 6 samples.

Results

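Glycolysis and the cellular response to low oxygen were examined in SK-BR-3, an established HER2-positive breast cancer cell line, through 34 genes taken by symbol from a count table of 30327 genes. The 34 genes comprised 17 glycolytic enzymes, 3 transporters of glucose and lactate, 5 kinases that set the flux through the pathway, HIF1A, and 8 targets of the hypoxia-inducible factors (HIF) outside glycolysis. All 34 were found in the table, and 33 had enough reads to be tested, the exception being ENO2. Poly(A) RNA had been sequenced in 6 libraries, 3 of them after a nontargeting siRNA (si_NC) and 3 after an siRNA that targets GRB2 (si_GRB2). GRB2 is the adaptor protein that couples receptor tyrosine kinases such as HER2 to Ras. Only 1 siRNA to GRB2 is described, in 1 cell line, and neither the methods nor the labels name a low-oxygen treatment. The titles, genotype entries and design text of the treated libraries speak of GRB2 overexpression from a plasmid, whereas the descriptions read si_GRB2. GRB2 stood at 123.9, 129.5 and 125.7 CPM (counts scaled to library size with edgeR's TMM factors) in the si_NC libraries and at 27.8, 28.1 and 29.6 CPM in those labelled si_GRB2. With a log2 fold change of −2.15 (edgeR adjusted p = 3.87e-15, standard error 0.04), the group was read as a knockdown. Between 24810378 and 28532480 reads per library fell on genes, and nothing in the labels says that the libraries of a group came from separate cultures, so p-values measure the spread between these libraries only, which may be technical.

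Glycolysis splits glucose into pyruvate, and lactate dehydrogenase turns pyruvate into lactate while restoring the NAD+ that the glyceraldehyde phosphate step consumes. HIF, a dimer of an oxygen-regulated alpha subunit such as HIF1A and the constant subunit ARNT, binds a short core motif in DNA and raises many of these enzymes when oxygen is scarce. Tumour cells often run glycolysis at a high rate with oxygen present, and growth factor signalling through PI3K and Ras is among the inputs known to raise it.

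In si_GRB2, the changes of these genes were small and went in both directions. Of the 33 genes tested, 4 rose (PFKL, SLC2A1, PFKFB3 and BNIP3) and 10 fell (PFKM, GAPDH, ENO1, PKM, LDHA, SLC16A1, SLC16A3, CA9, EGLN3 and ADM) at an edgeR adjusted p under 0.05. That was 42.4% of the tested members, beside 30.6% of all 15801 genes tested, of which 15.2% were higher and 15.5% lower. Members were abundant, with a median of 88.4 CPM against 16.2 CPM over all genes tested. Among genes with a mean of at least 10 CPM, 43.6% were called, and 12 of the 29 members at that level were called. The log2 fold changes of the members ran from −0.44 (EGLN3) to 0.23 (BNIP3), with a median of −0.05 beside 0.0019 over all genes tested. No member changed by more than 1.5-fold in either direction, the fold limit of the study. With that limit and an edgeR adjusted p under 0.01, 0 members and 2.52% of all genes tested passed, and with the unadjusted p under 0.01 that the methods state, 0 members and 3.37% of all genes passed. DESeq2 also found 0 members past the fold limit with an adjusted p under 0.01, while 20 members had an unadjusted edgeR p under 0.05. The 3 libraries of each group did not overlap for 18 of the 33 members, 7 higher and 11 lower in si_GRB2, and for 42.3% of all genes tested. With library totals as the only scaling, 10 members were called higher and 7 lower, and over all genes the share of higher calls went from 49.5% to 66.5%. In RNA from a whole culture, fewer cells carrying a transcript and less of it in each cell cannot be told apart.

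**Figure D1:**
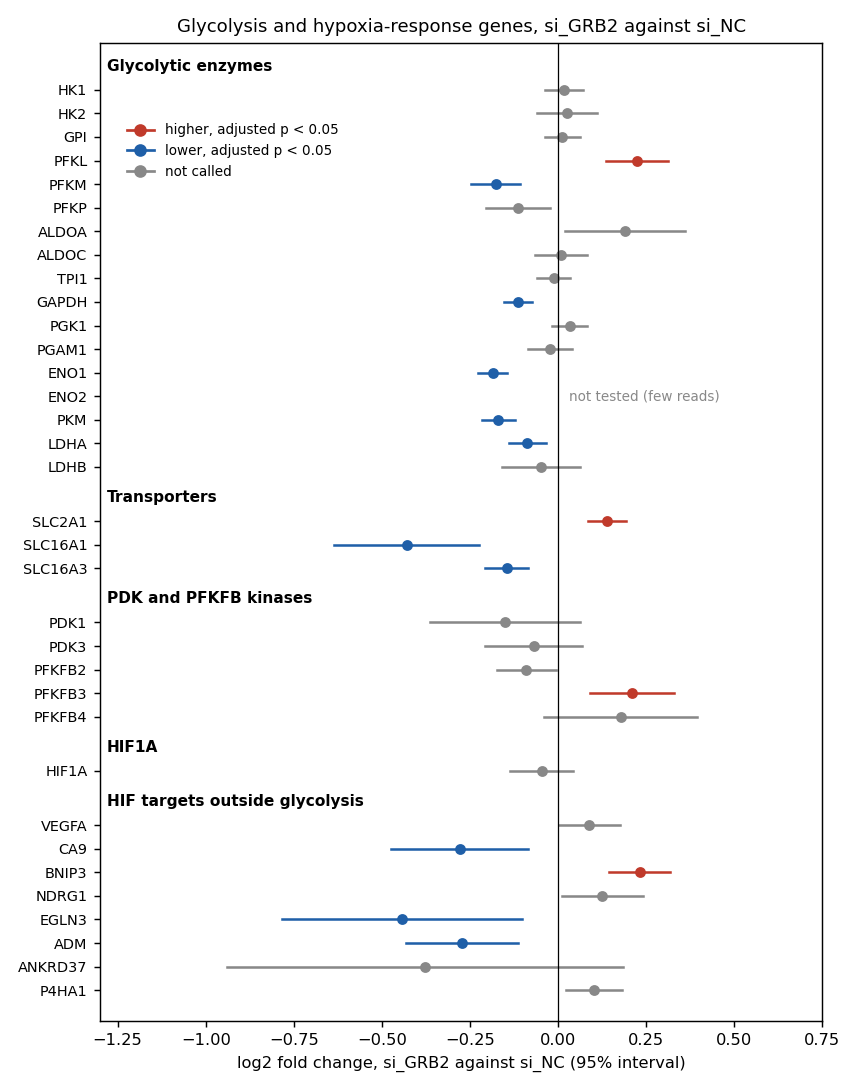
Log2 fold change of each of the 34 genes in si_GRB2 against si_NC, with its 95% interval on the horizontal axis (edgeR, 3 libraries a group) and the genes grouped by role on the vertical axis. Red points are the 4 genes called higher and blue points the 10 called lower, all between −0.44 and 0.23, and ENO2 was not tested.

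Promoter windows are shown for 6 members to place the HIF core word beside genes that moved in either direction or not at all. Each stretch shown holds the word, and no window without it is printed. The core is read here as ACGTG or GCGTG on either strand, so CACGT and CACGC are the same words on the other strand, and a palindromic CACGTG counts once on each strand. Windows came from RefSeq (GRCh38.p14) and run from 250 bases before the start to 50 after it. They were at hand for 30 of the 34 members (not for SLC16A1, PFKFB2, VEGFA and NDRG1). Stretches within them are written 5′ to 3′ on the strand of the gene, with the words in capitals. BNIP3 rose, PGK1 was not called, and the other 4 fell.
LDHA, plus strand, chr11:18394463-18394512: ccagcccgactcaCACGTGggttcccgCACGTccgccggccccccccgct
PGK1, plus strand, chrX:78104028-78104077: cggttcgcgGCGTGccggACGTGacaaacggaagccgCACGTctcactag
ENO1, minus strand, chr1:8878737-8878776: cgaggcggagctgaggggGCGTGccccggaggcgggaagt
BNIP3, minus strand, chr10:131982014-131982073: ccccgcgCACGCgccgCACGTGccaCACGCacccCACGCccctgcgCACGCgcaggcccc
CA9, plus strand, chr9:35673888-35673927: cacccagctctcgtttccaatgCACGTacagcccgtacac
ADM, plus strand, chr11:10304958-10304997: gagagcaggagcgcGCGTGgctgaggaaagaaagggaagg
ACGTG was present in 16 of the 30 windows (53.3%) and in 23.3% of all 19095 windows, and GCGTG in 15 (50%) and 42.6%. At least 1 of the words was present in 25 of the 30 (83.3%), in 13 of 17 enzymes and in 5 of 6 HIF targets, beside 54.5% of all windows. LDHA held 5 matches of ACGTG and BNIP3 held 2 of ACGTG and 4 of GCGTG, whereas TPI1, PFKM, PFKP, PGAM1 and EGLN3 held none in this window. For PFKM, PGAM1, GAPDH and PFKP the start used lies 3283, 1627, 747 and 422 bases from the start of the canonical transcript. For HK1 and GPI it lies 217 and 204 bases from it. A match of letters is a description of the window and was not tested as a binding site.

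Among the upstream enzymes, from hexokinase to aldolase, only PFKL and PFKM were called. HK1 and HK2, the hexokinases that trap glucose as glucose 6-phosphate, had log2 fold changes of 0.016 and 0.025, and GPI, which isomerises that product, one of 0.013, with edgeR adjusted p-values of 0.70, 0.702 and 0.748. Phosphofructokinase, the main control point of glycolysis, is a tetramer built from PFKL, PFKM and PFKP, named for liver, muscle and platelet. PFKL was at 122.7, 120.0 and 131.6 CPM in si_NC and at 152.4, 147.7 and 137.6 CPM in si_GRB2. Each si_GRB2 library lay above each si_NC library, by a log2 fold change of 0.23 (standard error 0.041, edgeR adjusted p = 0.000573). PFKM moved the other way, from 101.3, 103.7 and 102.5 CPM to 90.5, 92.0 and 89.5 CPM. Its groups did not overlap, and its log2 fold change was −0.18 (standard error 0.033, edgeR adjusted p = 0.000593). PFKP had means of 91.9 ± 5.24 and 84.9 ± 2.91 CPM (SD, n = 3), with overlapping groups and a log2 fold change of −0.11 (edgeR adjusted p = 0.0545), and it was called lower in 6 of 17 refits. ALDOC, an aldolase best known from brain, was at 79.9 ± 1.51 and 80.4 ± 1.57 CPM (SD, n = 3), with a log2 fold change of 0.0083 (95% interval −0.067 to 0.083).

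The later enzymes from the glyceraldehyde phosphate step onward held 4 of the 5 falls. ENO1, the enolase that forms phosphoenolpyruvate, was at 2895, 2937 and 2928 CPM in si_NC and at 2602, 2542 and 2559 CPM in si_GRB2. Its groups were far apart relative to their spread, and its log2 fold change of −0.19 (standard error 0.019, edgeR adjusted p = 2.11e-06) had the lowest adjusted p of the 33. PKM, the pyruvate kinase gene that yields both the M1 and the M2 form by splicing, went from 1415, 1413 and 1442 CPM to 1288, 1269 and 1239 CPM, a log2 fold change of −0.17 (standard error 0.022, edgeR adjusted p = 2.44e-05). The counts do not separate its splice forms. With limma on FPKM in place of counts, the calls of PKM, GAPDH, LDHA and PFKM were lost in all 3 fits, and 0, 0 and 1 enzymes were called lower in place of 5. The FPKM were used as the authors gave them, without further scaling between libraries. Relative to reads on genes and to si_NC replicate 1, their scale was 1.03 and 1.08 in si_NC replicates 2 and 3. In si_GRB2 it was 1.00, 1.05 and 1.04. The part of this scale in the lost calls was not tested. GAPDH, which oxidises glyceraldehyde phosphate, had 7237, 7480 and 7512 CPM in si_NC against 6939, 6787 and 6810 CPM in si_GRB2. The highest si_GRB2 library stayed under the lowest si_NC library, and the log2 fold change was −0.11 (standard error 0.019, edgeR adjusted p = 0.000233). LDHA, the main subunit that makes lactate, was at 1415, 1411 and 1338 CPM and at 1319, 1282 and 1318 CPM. That was the smallest change among the 14 called, a log2 fold change of −0.09 (standard error 0.025, edgeR adjusted p = 0.0138). LDHA was no longer called in 6 of 17 refits, among them the 3 with limma on FPKM. The others were without si_NC replicate 2 (edgeR adjusted p = 0.0505), without si_GRB2 replicate 2 (edgeR adjusted p = 0.0748) and with library totals as the only scaling.

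Between those falls stood enzymes that were not called. TPI1, which interconverts the triose phosphates, had 1069 ± 17.9 and 1060 ± 11.9 CPM (SD, n = 3) and a log2 fold change of −0.013 (95% interval −0.06 to 0.035). PGK1, the first step of the pathway that makes ATP, had 626.9 ± 8.7 and 641.6 ± 7.87 CPM (SD, n = 3) and a log2 fold change of 0.033 (95% interval −0.017 to 0.083). PGAM1, the phosphoglycerate mutase, had a log2 fold change of −0.023 (95% interval −0.085 to 0.038). The 95% interval of ENO1, −0.23 to −0.14, lay wholly below those of these 3 enzymes. ENO2, the neuronal enolase, had between 4 and 16 reads per library and was not tested. GAPDH, TPI1 and ENO2 lie on the plus strand of chromosome 12 within 6534512 to 6923698 (GRCh38, GENCODE 44), and of the 3 only GAPDH was called.

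**Figure D2:**
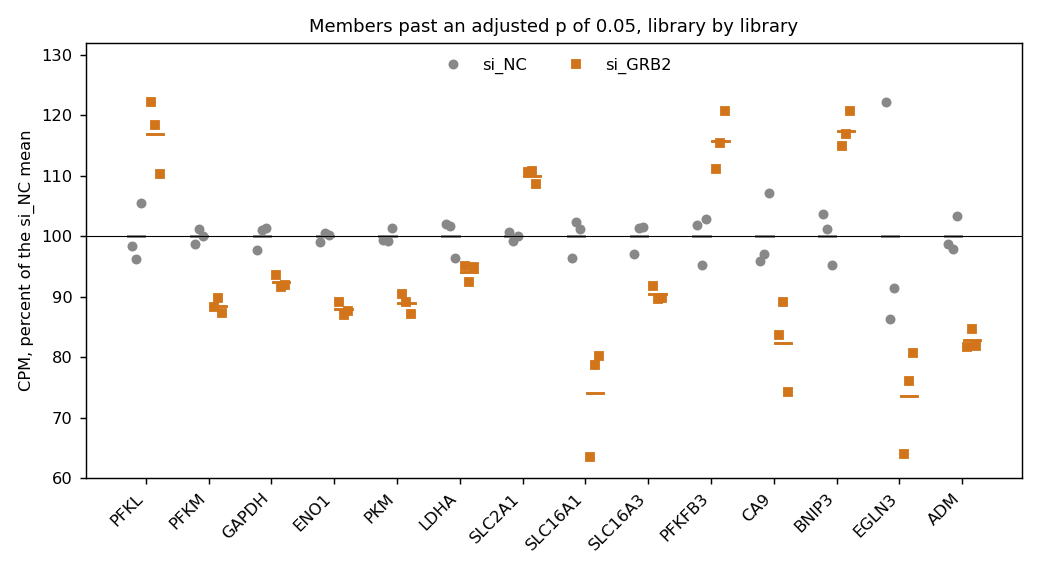
CPM of the 14 called genes in each library, as a percent of the mean of the 3 si_NC libraries (vertical axis, not starting at 0), with grey circles for si_NC, orange squares for si_GRB2 and short bars for group means. In each gene the 3 squares lie on one side of the 3 circles, closest for LDHA, and the si_NC library of EGLN3 at the top stands well above its group.

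GAPDH is also the transcript to which the study scaled its RT-PCR, so its level enters any ratio to it. Its primers, from the supplementary table of the study, are shown because they fix which part of the transcript was read. Capitals mark the bases in exon 3, the rest of the forward primer lying in exon 2.
GAPDH forward: ggtcggagtcaacggATTTG
GAPDH reverse: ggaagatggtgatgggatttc
On GRCh38 the forward primer covers chr12:6534847-6536498 with the intron between, and the reverse primer lies in exon 4 at chr12:6536766-6536786. Both lie in coding sequence and bound 218 bases of the canonical transcript. Per 1000 GAPDH reads, GRB2 had 17.1, 17.3 and 16.7 reads in si_NC and 4.003, 4.15 and 4.34 in si_GRB2. That ratio differed by −2.03 on the log2 scale, which leaves 24.4% of the si_NC level, while CPM differed by −2.15 and leave 22.6% (exact permutation test, two-sided p = 0.1 for both, the smallest that 3 libraries against 3 allow). Annotated GAPDH pseudogenes are many, and the 22 found held 281 reads in all, equal to 0.0247% of the 1137721 reads on GAPDH, the counts being of uniquely mapped reads.

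All 3 transporters were called, in both directions, beside 30.6% of all genes tested. SLC2A1, the glucose importer GLUT1, was at 289.3, 285.0 and 287.1 CPM in si_NC and at 317.6, 318.2 and 312.0 CPM in si_GRB2, with a log2 fold change of 0.14 (standard error 0.025, edgeR adjusted p = 0.000593). Both carriers of lactate went down. SLC16A1 (MCT1) fell from 10.5, 11.1 and 11.02 CPM to 6.91, 8.56 and 8.73 CPM, a log2 fold change of −0.43 (standard error 0.097, edgeR adjusted p = 0.00286). SLC16A3 (MCT4, the main lactate exporter of glycolytic cells) had 214.2, 223.9 and 224.2 CPM against 202.5, 197.8 and 198.4 CPM, with a log2 fold change of −0.15 (standard error 0.029, edgeR adjusted p = 0.00112). In none of the 3 did the groups overlap, as in 42.3% of all genes tested. On the FPKM scale, which is per transcript length, SLC16A3 was the larger of the lactate carriers at 19.2 ± 1.11 against 1.38 ± 0.0819 for SLC16A1 in si_NC (SD, n = 3).

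Of the 5 kinases, PFKFB3 alone was called. The PFKFB enzymes make and remove fructose 2,6-bisphosphate, an activator of phosphofructokinase, and PFKFB3 is the form with the highest kinase over phosphatase activity. It rose from 21.0, 19.6 and 21.2 CPM to 22.9, 23.7 and 24.8 CPM, a log2 fold change of 0.21 (standard error 0.056, edgeR adjusted p = 0.009). The groups were separate, but without si_NC replicate 2 the adjusted p was 0.0556. PFKFB2 had 50.2 ± 0.858 and 47.1 ± 0.811 CPM (SD, n = 3), also with no overlap, and a log2 fold change of −0.09 (edgeR adjusted p = 0.0976). PFKFB4 had 7.94 ± 0.74 and 8.97 ± 0.82 CPM (SD, n = 3) and overlapped. PDK1 and PDK3, which inhibit pyruvate dehydrogenase and so keep pyruvate out of the mitochondrion, had log2 fold changes of −0.15 and −0.07 with edgeR adjusted p-values of 0.294 and 0.477.

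The balance of isoenzymes within a library was read from the FPKM of the authors, since FPKM corrects for length and a ratio within a library does not depend on its scaling. PFKL made up 35.3%, 33.4% and 36.1% of the summed phosphofructokinase FPKM in si_NC and 42.6%, 41.0% and 39.4% in si_GRB2. The share of PFKM went from 35.9%, 35.5% and 34.6% to 31.1%, 31.5% and 31.6%. PFKL and PFKM were thus near equal in si_NC, and in si_GRB2 PFKL was ahead in every library. The share of PFKP, 29.7% ± 1.23 and 27.6% ± 1.29 (SD, n = 3), overlapped between groups. Taken from counts instead, it was 28.8% and 26.4% with no overlap. Within the PFKFB family, PFKFB2 went from 51.4% ± 0.8 to 46.3% ± 0.3 and PFKFB3 from 35.1% ± 0.725 to 39.0% ± 1.18 (SD, n = 3), each with no overlap. For the FPKM shares of PFKL, PFKM, PFKFB2 and PFKFB3 the exact two-sided permutation p was 0.1, the smallest possible. Other shares that overlapped were those of PFKFB4 (13.6% and 14.7%), HK2 (24.7% and 24.8%), PDK3 (58.9% and 60.2%) and LDHB (3.45% and 3.53%). The share of ENO2 overlapped too (0.0141% and 0.0171%), and ENO1 made up nearly all enolase. The shares of the rows named ALDOA (7.79% and 8.74%) and ALDOC (92.2% and 91.3%) did not overlap. Most reads at the ALDOA and LDHB loci were counted on overlapping rows, so these aldolase and LDHB shares leave them out.

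**Figure D3:**
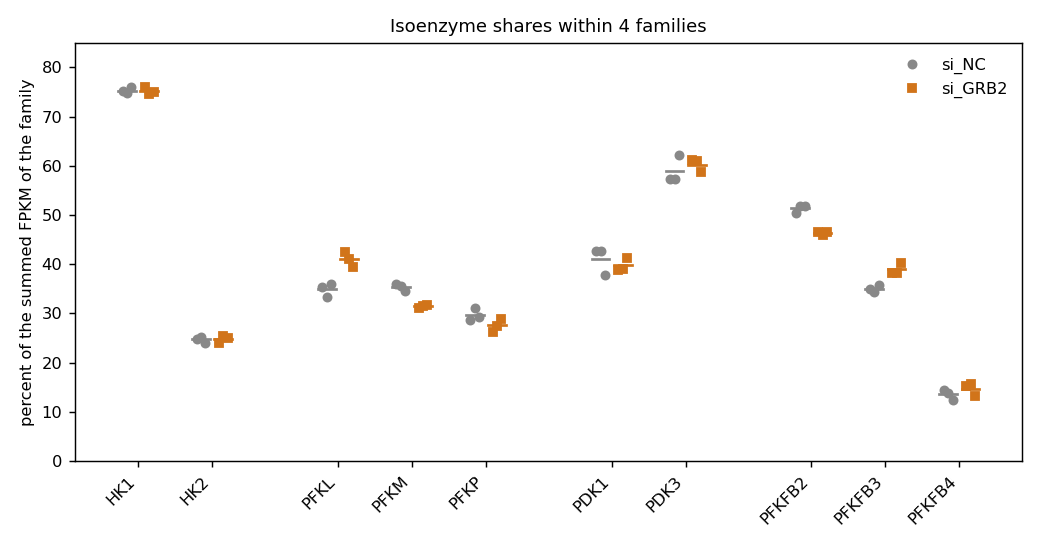
Share of each isoenzyme in the summed FPKM of its family (vertical axis, percent), with grey circles for the 3 si_NC libraries, orange squares for the 3 si_GRB2 libraries and bars for their means. PFKL (34.9% to 41.0%) and PFKFB3 (35.1% to 39.0%) are higher and PFKM and PFKFB2 lower in every si_GRB2 library, while the hexokinase and PDK shares overlap.

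HIF1A itself had 73.7, 70.1 and 70.8 CPM in si_NC and 66.6, 67.9 and 73.2 CPM in si_GRB2. The groups overlapped, and the log2 fold change of −0.05 had a 95% interval of −0.14 to 0.042 (edgeR adjusted p = 0.457). HIF1A is regulated chiefly through the stability of its protein, which RNA counts do not measure.

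Of the 8 HIF targets outside glycolysis, 1 rose, 3 fell and 4 were not called. BNIP3, a mitochondrial receptor for autophagy, rose from 64.2, 62.7 and 59.0 CPM to 71.2, 72.4 and 74.8 CPM. Its log2 fold change was 0.23 (standard error 0.041, edgeR adjusted p = 0.000385), and it was the one called gene among the 34 that stayed called in all 17 refits. ADM, the vasodilator peptide adrenomedullin, fell from 12.2, 12.1 and 12.8 CPM to 10.1, 10.5 and 10.1 CPM, a log2 fold change of −0.27 (standard error 0.075, edgeR adjusted p = 0.011). It was not called by DESeq2. CA9, the cell-surface carbonic anhydrase often used as a marker of hypoxia in tumours, had 10.7, 10.8 and 11.9 CPM and then 9.30, 9.91 and 8.26 CPM, with a log2 fold change of −0.28 (standard error 0.091, edgeR adjusted p = 0.0281). EGLN3, a prolyl hydroxylase that marks HIF alpha for breakdown, had 5.38, 3.81 and 4.03 CPM and then 2.82, 3.35 and 3.56 CPM, with a log2 fold change of −0.44 (standard error 0.161, edgeR adjusted p = 0.0464). CA9 and EGLN3 were each lost in 8 refits, DESeq2 included. Without si_NC replicate 1, the high library, EGLN3 had a log2 fold change of −0.28 and an adjusted p of 0.234, and CA9 had an adjusted p of 0.126 without si_GRB2 replicate 3.

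Of the 4 targets not called, 3 had values above 0. P4HA1, a prolyl hydroxylase of collagen, had 107.6, 103.8 and 97.5 CPM and then 110.5, 109.0 and 112.1 CPM, and VEGFA, the angiogenic growth factor, 45.9 ± 1.04 and 48.8 ± 1.1 CPM (SD, n = 3). Neither overlapped between groups, with log2 fold changes of 0.10 and 0.09 and edgeR adjusted p-values of 0.0503 and 0.115. NDRG1, a stress-response gene, had 130.5 ± 12.2 and 142.5 ± 8.58 CPM (SD, n = 3) and overlapped. ANKRD37, a small ankyrin-repeat gene, had 0.869 to 1.85 CPM and a log2 fold change of −0.38 with an interval from −0.94 to 0.19. Without si_NC replicate 1, 3 HIF targets were called higher in place of 1. Without si_GRB2 replicate 1, and again without replicate 3, 1 was called lower in place of 3.

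Enzymes and HIF targets outside glycolysis were set side by side. Among the 16 enzymes tested, 6 were called (37.5%), 1 higher and 5 lower, and among the 8 HIF targets 4 were called (50%), 1 higher and 3 lower. Beside these stand 30.6% of all genes tested and 43.6% of those with a mean of at least 10 CPM. The enzymes had a median log2 fold change of −0.018 and a range of −0.19 to 0.23, the median being 0.032 with library totals as the only scaling. The HIF targets had a median of −0.09 and a wider range of −0.44 to 0.23, with 4 values above and 4 below 0. The 4 below 0 (ADM, CA9, EGLN3 and ANKRD37) stood at 1.55 to 12.3 CPM in si_NC, with standard errors of 0.075 to 0.265. Those above 0 stood at 45.9 to 130.5 CPM, with standard errors of 0.038 to 0.054. The median of the HIF targets was −0.0049 with limma on log2(FPKM + 1). It was 0.12 when a mean FPKM of at least 1 was also required, beside 0.036 over all genes in that fit. That cut-off left out EGLN3 and ANKRD37. Groups did not overlap for 7 enzymes, 2 of them higher, and for 6 HIF targets, 3 of them higher, where 42.3% of all genes had none. The difference between the lists was not tested. As a share of all reads on genes, the 17 enzymes went from 1.63% ± 0.0111 to 1.57% ± 0.0127 (SD, n = 3), of which GAPDH was 0.727% and 0.696%. With the 2 rows that overlap ALDOA and LDHB added, the share was 1.89% ± 0.013 and 1.83% ± 0.0182 (SD, n = 3).

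For some members the reads of a locus were divided between overlapping genes, and the method of counting and its strand setting are not given in the sources used here. ALDOA, the main aldolase of most tissues, had 1685 reads over the 6 libraries, whereas ENSG00000285043, an unnamed protein-coding annotation on the same strand over 42.8% of the exon bases of ALDOA, had 350754. That row had 2230 CPM in si_NC and 2166 CPM in si_GRB2, a log2 fold change of −0.04 (edgeR adjusted p = 0.207), against 0.19 (adjusted p = 0.0856) for the row named ALDOA. LDHB, the heart form of lactate dehydrogenase, had 3836 reads beside 60194 for ENSG00000285854, which covers 33.4% of its exon bases. The latter fell by 0.09 on the log2 scale (edgeR adjusted p = 0.0155), and the row named LDHB had a log2 fold change of −0.05 (adjusted p = 0.546). With these rows added, both chosen after their values were seen, ALDOA made up 95.7% and 95.5% of aldolase FPKM instead of 7.79% and 8.74%, and LDHB 26.7% and 26.7% of lactate dehydrogenase FPKM. The rows named ALDOA and LDHB thus held a minor part of the reads counted at their loci.

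Genes on the opposite strand overlapped other members. The libraries were made strand-specific with dUTP, so reads of the strands can be told apart where the counting used strand, which is not stated. ARHGEF39, over 35.7% of the exon bases of CA9, held 246% of the reads of CA9 and fell by 0.36 on the log2 scale (edgeR adjusted p = 6.83e-05). SENP1, over 7.12% of PFKM, held 17% of its reads and fell by 0.79 (edgeR adjusted p = 4.15e-07). UFSP2, over 40.3% of ANKRD37, rose with a log2 fold change of 0.33 (edgeR adjusted p = 0.00229), the other direction from ANKRD37. For GAPDH, the antisense ENSG00000269968 covers 17.6% of exon bases with 8.56% as many reads and had a log2 fold change of −0.18 (edgeR adjusted p = 0.287). CSNK1D, over 5.22% of SLC16A3, had a log2 fold change of −0.02. The part of these neighbours in the values of the members was not tested.

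Members were ranked against each other in FPKM, whereas the medians and cut-offs given in CPM are not corrected for length. In si_NC, GAPDH led with 2485 ± 133 FPKM, followed by ENO1 with 449.8 ± 18.5, TPI1 with 318.3 ± 15.7, LDHA with 184.5 ± 1.73, PKM with 133.4 ± 6.3 and PGK1 with 92.6 ± 2.22 (SD, n = 3). The 9 highest members were all enzymes, down to HK1 at 37.4 ± 1.31 FPKM, and SLC2A1 came next at 34.9 ± 1.22. The phosphofructokinases were far lower, with PFKM at 11.4 ± 0.465, PFKL at 11.2 ± 0.93 and PFKP at 9.56 ± 0.728 FPKM. HIF targets outside glycolysis ranged from P4HA1 at 26.7 ± 0.375 down to EGLN3 at 0.48 ± 0.0819 FPKM. Of the 33 pairs of neighbours in this order, 8 had ranges over the si_NC libraries that overlapped. Among them were PFKM with PFKL, PFKL with HIF1A, PFKP with BNIP3, and ANKRD37 with EGLN3. Such ranges ignore that both genes of a pair were read in the same libraries. PFKM and PFKL changed order between si_NC libraries, whereas ADM was above PFKFB2 in each (4.09, 4.13 and 4.59 against 3.85, 3.85 and 4.18 FPKM). ENO2 was last at 0.0633 ± 0.00577 FPKM. The row named ALDOA stood at 2.08 ± 0.188 FPKM, whereas ENSG00000285043 over the same locus had 540.1 ± 26.8 FPKM, above ENO1, and ENSG00000285854 at LDHB had 60.5 ± 1.53.

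**Figure D4:**
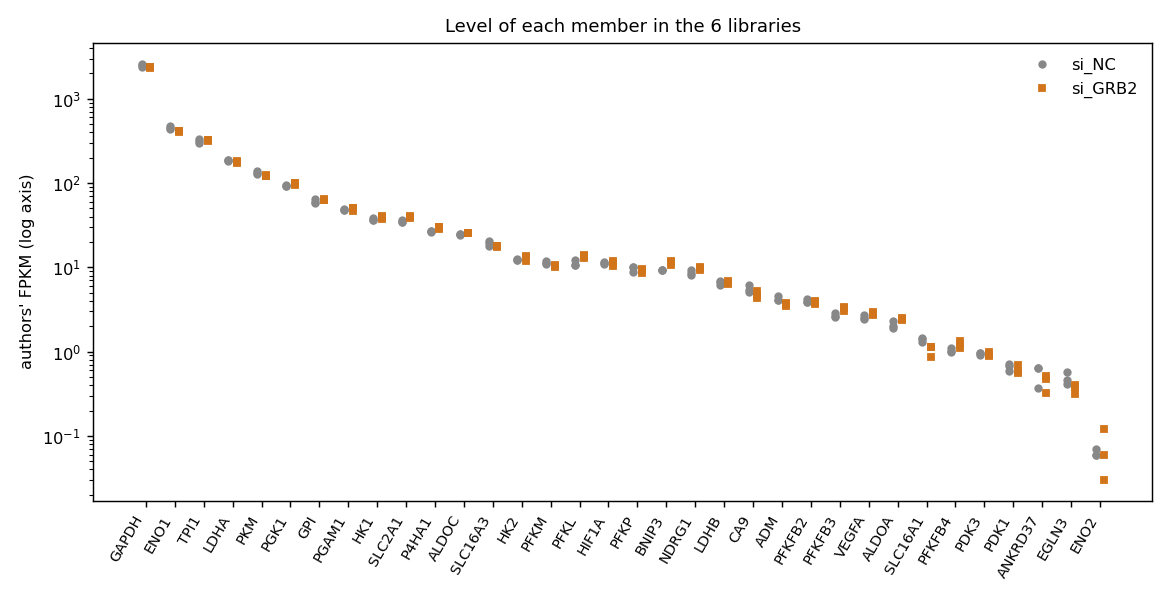
FPKM of the 34 genes in each library (vertical log axis), ordered by the si_NC mean, with grey circles for si_NC and orange squares for si_GRB2. Levels span from 2485 FPKM for GAPDH to 0.0633 for ENO2, and at this scale the groups lie on top of each other for most genes.

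Further genes of these pathways were counted from 5 lists, 95 genes of which 79 were tested. Of these, 21 rose and 16 fell, 46.8% in all beside 30.6% of all genes tested and 43.6% of those with a mean of at least 10 CPM. The fold limit was passed by 3 with an edgeR adjusted p under 0.01 (4 with an unadjusted p under 0.01). From each list, up to 4 called genes with the largest changes are named. Among 12 oxygen-sensing genes and HIF subunits, 3 rose and 1 fell. ARNT, the constant partner of HIF alpha, rose from 34.1 to 44.4 CPM (log2 fold change 0.38, edgeR adjusted p = 1.67e-05). The asparagine hydroxylase HIF1AN rose with a log2 fold change of 0.25 and the alpha subunit EPAS1 (HIF-2 alpha) with one of 0.17, while RBX1, of the ubiquitin ligase that removes HIF alpha, fell by 0.14. Among 25 further HIF targets, 9 rose and 6 fell. ANGPTL4, a secreted regulator of lipoprotein lipase, fell by 0.64 and LOXL2, which crosslinks collagen, by 0.58 on the log2 scale, whereas BNIP3L, the close relative of BNIP3, and P4HA2, that of P4HA1, rose with log2 fold changes of 0.46 and 0.34 (edgeR adjusted p at most 0.00309 for the 4).

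Other isoenzymes and carriers of glycolysis gave 3 rises and 3 falls among 16 tested (37.5%). Over all genes tested 30.6% were called, and 43.6% of those with a mean of at least 10 CPM. ADPGK, a glucokinase that uses ADP, fell from 47.2 to 27.2 CPM, a log2 fold change of −0.79 (standard error 0.051, edgeR adjusted p = 8.15e-09). TIGAR, which lowers fructose 2,6-bisphosphate, fell by 0.43, and the glucose carriers SLC2A12 and SLC2A4 rose with log2 fold changes of 0.50 and 0.47 at under 7 CPM. For the entry of pyruvate into mitochondria, 4 of 14 rose and 2 fell (42.9% called). MPC1 and MPC2, which together form the mitochondrial pyruvate carrier, rose from 82.1 to 105.7 CPM and from 75.9 to 90.6 CPM, with log2 fold changes of 0.36 and 0.25 (edgeR adjusted p = 1.84e-06 and 0.000143). PDP1, the phosphatase that reactivates pyruvate dehydrogenase, rose from 1.43 to 2.15 CPM, a log2 fold change of 0.60, while PDHX, a structural subunit of that complex, fell by 0.36 (edgeR adjusted p = 4.07e-06). Gluconeogenesis and glycogen genes gave 2 rises and 4 falls among 12 (50%). PYGL, the liver form of glycogen phosphorylase, fell from 55.5 to 34.5 CPM (log2 fold change −0.69, edgeR adjusted p = 6.72e-09). PCK2 and PGM1 fell by 0.23 and 0.20, and the glycogen branching enzyme GBE1 rose with 0.18.

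Markers of the cell line were checked in the same fit. ERBB2, named here because it defines the line, had 3499 and 4140 CPM in si_NC and si_GRB2, and CDH1 had 1 to 3 reads per library. Of 9 tested markers of luminal HER2 cells, 2 rose and 6 fell, where 30.6% of all genes tested and 54.3% of those with a mean of at least 100 CPM were called. Among them were KRT18 and EPCAM (each by 0.55) and KRT8 (by 0.41), which fell, and FOXA1, which rose with a log2 fold change of 0.36. The summed level of these 10 markers was 19677 to 20136 CPM in si_NC and 16475 to 17155 CPM in si_GRB2. For 12 markers of other cell types the sums were 26.3 to 27.8 and 15.6 to 17.2 CPM, with ACTA2 and KRT5 called lower of the 6 tested and PTPRC and PECAM1 at 0 or 1 read per library. The part of these shifts in the values above was not tested.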

How the data were processed

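RNA-seq of 6 SK-BR-3 libraries (3 si_NC, 3 si_GRB2) was used. The authors trimmed reads with FASTX-Toolkit, aligned them to GRCh38 with HISAT2 and deposited, from uniquely mapped reads, the read count per gene without normalization and FPKM per gene. The counting tool, its strand setting and its annotation are not given in the sources used here.

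Factors were computed from the counts by TMM in edgeR 4.0.16, run in R 4.3.3, and filterByExpr retained 15801 genes. The quasi-likelihood test compared the groups without covariates, with Benjamini-Hochberg adjustment over those genes, and a gene was called at an adjusted p under 0.05. The study used DESeq2. CPM are TMM-normalized. Standard errors and intervals are those of the edgeR log2 fold change. The test was checked on simulated counts. Positions, overlaps and exon bases came from GENCODE 44. Tables and figures used Python 3.11.15, numpy 2.4.6, pandas 2.3.3 and matplotlib 3.10.9.

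The named genes are the 34 members, GRB2 and, of each further list, up to 4 called genes with the largest change. Members and lists were chosen with earlier results of these data known. Alternatives were DESeq2 1.42.0, other scalings and filters, a robust fit, a replicate block, limma 3.58.1 on log2(FPKM + 1) or log2(FPKM + 0.1), stricter p, and each library left out. Of these, 17 refitted all genes. The fRIP-seq libraries were not analysed here.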

Additional observations from a re-analysis of the deposited data

How the results depend on the processing

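Over all refits, 488 of 557 values of members stayed on the same side of the threshold, 48 lost a call and 21 gained one. Where the main fit or the refit called the gene, 0 changed direction. Members not called in either could change sign, as did HK2 with log2 fold changes from −0.0079 to 0.075. BNIP3 was the one called member that kept its call in all 17. Medians of 16 and 8 genes near 0 limit what their sign can show, and genes under about 10 CPM rest on few reads. The causes of the changes below were not tested.

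With library totals only, which moved the median of all genes to 0.052, calls were 4 enzymes higher, 4 HIF targets higher and 1 lower, 10 members higher, and the enzymes' median was 0.032. With limma on log2(FPKM + 1) and on log2(FPKM + 0.1), 0 enzymes were higher and 0 lower, 0 HIF targets were lower, 1 member was higher and 0 were lower, 8 further pathway genes were higher and 6 lower, and the enzymes' median was 0.020 and 0.024. The HIF targets' median was −0.0049 with the former. With a mean FPKM of at least 1 as well, 1 enzyme was lower, 2 HIF targets were higher and 1 lower, 3 members and 8 further genes were lower, and the medians were 0.025 and 0.12. That cut-off left EGLN3 and ANKRD37 out of the HIF targets, and the median over all genes in that fit was 0.036. HIF targets called higher were 2 with RLE factors, 2 with the robust fit and 3 without a filter, and 0 were lower with DESeq2. At an adjusted p under 0.01, 0 HIF targets and 6 members were lower. The difference in the ALDOC share went from −0.956 to 0.145 percentage points with the row overlapping ALDOA. Leaving out 1 library at a time gave 1 to 3 HIF targets higher and 1 to 3 lower.

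Samples with the same replicate number had deviations that correlated at 0.232, −0.0948 and 0.0804. Those with different numbers correlated at −0.282 to 0.228. The numbers were not taken as pairs in the main fit. With the replicate block, 2 HIF targets were higher and 3 lower, 6 enzymes were lower, 5 members were higher and 11 lower, and the count of all calls was 2390 higher and 2417 lower.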
